A study of Mus musculus with 10 samples.

Results

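The regions described here were bound by p65 in unstimulated regulatory T cells (Treg) and again, at overlapping positions, in stimulated Treg and stimulated conventional T cells (Tconv), with no peak in unstimulated Tconv. They were chosen by that rule from the authors' 4 peak lists. Entries of all lists that overlapped by at least 1 bp were merged into 11923 union regions, and 377 of them (3.16%) held an entry of each of the other lists and none of the unstimulated Tconv list. They made up 11.8% of the 3208 regions of unstimulated Treg, 3.53% of the 11077 regions of stimulated Treg and 6.64% of the 5734 regions of stimulated Tconv. The unstimulated Tconv list held 2961 regions.

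p65, also called RelA, is a subunit of the transcription factor NF-kB. In resting T cells most NF-kB is held in the cytoplasm by inhibitor proteins of the IkB family, and signals from the T cell receptor and the co-stimulatory receptor CD28 degrade the inhibitors and let NF-kB enter the nucleus. Treg are T cells that hold back immune responses, and NF-kB subunits are known to be needed for their development and for their identity in the periphery.

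Chromatin of mouse T cells was precipitated with an antibody against p65 and sequenced (ChIP-seq). All cells came from spleens and lymph nodes of C57BL/6 mice, and no gene deletion or transgene is named for any group. The groups were Tconv and Treg, each unstimulated or kept for 3 h on plates coated with anti-CD3 with soluble anti-CD28. Stimulated Tconv received IL-2 at 2 ng/ml and stimulated Treg at 10 ng/ml, so cell type and IL-2 concentration cannot be told apart in those groups. How the cells were isolated, how long the unstimulated cells were kept and whether they received IL-2 are not given in the sources used here. Each group had 2 libraries and there were 2 libraries of mixed input chromatin, 10 in all. The authors pooled the libraries of a group into 1 peak list. Spread between replicates is therefore unknown, and every interval and p-value below covers regions alone, which are not replicates of a condition.

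For each region and list, the value given is the fold enrichment of its strongest summit over the local background, as the authors' peak caller wrote it. The depth of the libraries is unknown, and folds of different lists are set side by side without being compared. A percentile gives the rank of a region within its own list by −log10 p, with 100 the strongest. Peaks come from populations of cells, so fewer cells with p65 at a site and less p65 per cell cannot be told apart. Sequences and gene positions are from RefSeq's tables of GRCm38.p6, whose coordinates are those of mm10, the build of the peak lists. Each region took the name of the closest protein-coding gene body within 50 kb of its stimulated Treg summit, which names a neighbour and not a target.

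The DNA at these regions was read where a member overlapped a promoter window of RefSeq's table, from 250 bases before to 50 bases after a transcription start. This covered 275 windows of 229 genes at 187 of the 377 members. The NF-kB consensus was found on either strand in 44 of these windows, or 16.0% (Wilson 95% interval 12.1 to 20.8%), against 8.46% of all 32851 windows of the table. In 39 windows the match lay before the start, and in 13 of these it was within 100 bp of the summits of all 3 lists that hold members. The 6 of these 13 whose stretch lay outside every gene body are printed below, since they show a kappaB sequence near the resting and the stimulated summits alike. Each is written 5′ to 3′ on the strand of its gene, with the consensus match in capitals.

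Rbm19: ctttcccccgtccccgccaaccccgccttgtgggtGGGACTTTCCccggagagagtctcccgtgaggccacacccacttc
Kif23: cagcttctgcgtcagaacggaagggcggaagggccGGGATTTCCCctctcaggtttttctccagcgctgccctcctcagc
Ptges3: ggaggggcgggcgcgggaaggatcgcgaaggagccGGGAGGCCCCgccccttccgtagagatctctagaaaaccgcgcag
Jarid2: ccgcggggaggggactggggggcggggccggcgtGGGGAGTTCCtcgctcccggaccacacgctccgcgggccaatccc
H2-Q4: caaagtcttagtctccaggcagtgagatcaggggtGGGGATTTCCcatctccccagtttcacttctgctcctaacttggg
H2-Q7: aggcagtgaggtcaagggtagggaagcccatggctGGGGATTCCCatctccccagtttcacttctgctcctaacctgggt

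The Rbm19 stretch is chr5:120116406-120116485 on the plus strand, and its match lay 1 bp from the unstimulated Treg summit, 3 bp from the stimulated Treg summit and 21 bp from the stimulated Tconv summit. Its fold enrichments in those lists were 7.97, 13.2 and 9.54. Kif23, which encodes a kinesin of cell division (chr9:61946905-61946984, minus strand), had its match at 68, 22 and 15 bp from the summits and folds of 8.63, 14.2 and 16.9. Both Treg summits thus fell within 3 bp of the match at Rbm19 and farther from it at Kif23.

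For Ptges3 (chr10:128058860-128058939, plus strand) the distances were 71, 37 and 56 bp and the folds 7.14, 10.3 and 9.67. For Jarid2, whose product belongs to a chromatin repressor complex (chr13:44730524-44730602, plus strand), they were 44, 50 and 44 bp with folds of 5.48, 18.1 and 16.7. H2-Q4 and H2-Q7 are class I genes of the major histocompatibility complex (MHC), which display peptides to T cells. The H2-Q4 match (chr17:35379408-35379487, plus strand) lay 21, 3 and 50 bp from the summits, with folds of 11.1, 13.2 and 15.4. The H2-Q7 match (chr17:35438987-35439066, plus strand) lay 15, 41 and 25 bp from them, with folds of 4.23, 10.2 and 8.72. The H2-Q genes are near-identical copies of one another, and the sources used here do not say how reads that map to several copies were treated, so the values of these H2-Q regions are uncertain.

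At 2 of the 39 windows the match was within 100 bp of the strongest unstimulated Treg summit and more than 1 kb from the strongest summit after stimulation. They are printed because the resting and the stimulated maxima of the region occupy different DNA.

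Kansl1l: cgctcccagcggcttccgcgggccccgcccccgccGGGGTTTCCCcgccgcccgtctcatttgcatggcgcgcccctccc
Tgfb1: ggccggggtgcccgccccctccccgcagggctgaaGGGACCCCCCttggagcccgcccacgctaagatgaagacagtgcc

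The Kansl1l match (chr1:66817651-66817730, minus strand) lay 57 bp from the resting summit and 1526 bp from the stimulated Treg summit, with folds of 7.56 unstimulated, 48.1 in stimulated Treg and 30.4 in stimulated Tconv. The match before Tgfb1 (chr7:25686827-25686906, plus strand), the gene of a cytokine that Treg use to restrain other T cells, lay 53 bp from the resting summit and 2478 bp from the stimulated Treg summit. Its folds were 6.11, 26.9 and 21.2. Weaker summits were closer, since the nearest pair of an unstimulated and a stimulated Treg summit was 24 bp apart in the Kansl1l region and 7 bp apart in the Tgfb1 region.

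Other motifs were counted in the same windows, on both strands. GGAANNNCC, which can share bases with the NF-kB consensus, was in 22.9% of members' windows and 18.5% of all windows. CCGGAAG, the motif of ETS factors, was in 19.6% against 8.86%, and GGGCGG, the motif of SP factors, in 69.5% against 35.7%. The cAMP response element TGACGTCA was in 4.0% against 1.79%. The AP-1 motif TGANTCA was in 4.36% against 7.81% and the RUNX motif TGTGGT in 13.1% against 16.8%. The share of all windows lay below the members' Wilson 95% interval for the NF-kB consensus and for the ETS (15.4 to 24.7%), SP (63.8 to 74.6%) and cAMP motifs (2.25 to 7.02%), and above it for AP-1 (2.51 to 7.47%). It lay inside the interval for GGAANNNCC (18.3 to 28.2%) and RUNX (9.61 to 17.6%).

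The windows of other p65 regions differ from promoters at large too. The NF-kB consensus was in 14.4% of windows under the 1644 union regions present in all 4 lists and in 11.9% of windows under the 3274 regions of both stimulated lists alone. The 149 regions of the mirror rule, present in unstimulated Tconv and both stimulated lists but not in unstimulated Treg, gave 12.96%. The intervals of these classes (12.8 to 16.1%, 10.01 to 14.01% and 7.88 to 20.6%) each overlapped the members' 12.1 to 20.8%. The ETS motif was in 20.4% of mirror windows, 20.2% of windows under the regions of all lists and 19.3% under stimulated regions. In the same order the SP motif was in 78.7%, 75.8% and 61.4% and the cAMP motif in 7.41%, 3.33% and 3.59%. The AP-1 motif was in 6.48%, 4.08% and 5.88% and the RUNX motif in 12.0%, 9.64% and 14.4%, again in that order. Each of these AP-1 and RUNX shares was below that of all windows, as in members. The NRF1 motif was in 8.61% of windows under the regions of all lists and 2.78% of mirror windows. It was in 0.364% (1 window) of the members' windows and 0.299% of those under stimulated regions, against 0.971% of all windows. Windows at neighbouring starts overlap and promoters share base composition, so these shares are a description.

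Before stimulation the members were weak entries of the Treg list. Their folds ran from 4.23 to 12.1, with quartiles of 5.59, 6.01 and 6.97, in a list whose median over all regions was 8.30. Their median percentile was 21.5, with 24 of the 377 (6.37%) in the upper 50% of the list and 0 in its top 10%. Of the 1644 regions of all 4 lists, 1174 (71.4%) were in the upper 50% of the same list and 319 (19.4%) in its top 10%. The rule itself used the unstimulated lists, so these values describe the members and were not tested.

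Among the regions of the unstimulated Treg list that were also in both stimulated lists, the share absent from unstimulated Tconv fell with strength. In successive bins of 10% of the list it was 67.6% in the weakest bin (94 of 139), 57.4% in the second, 43.6% in the third, 34.6% in the fourth and 19.4% in the fifth. In the strongest bins it was 0 of 280 and 0 of 319. The mirror regions followed the same course in the unstimulated Tconv list, with 46.8% in its weakest bin (51 of 109), 33.5% in the second and none above the fifth. Of regions in both stimulated lists, those called in 1 resting cell type alone thus came mostly from the weaker part of that type's list. Unstimulated regions missing from either stimulated list were not binned.

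**Figure D1:**
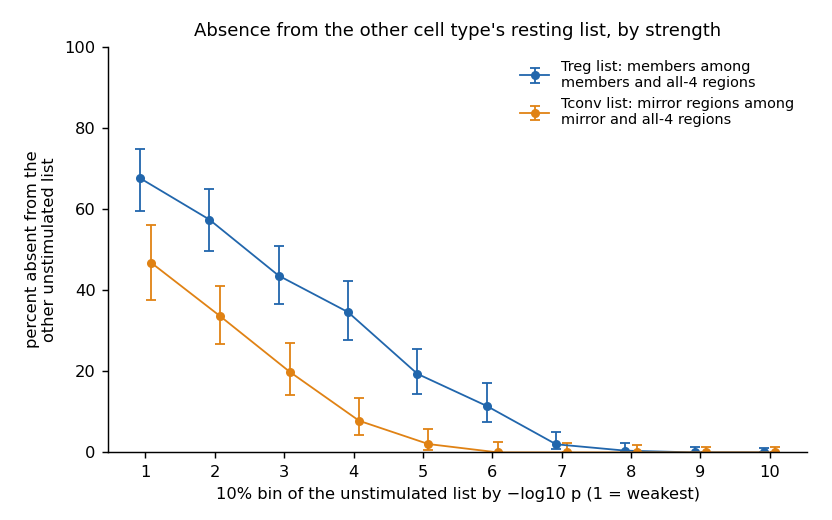
Percent of regions absent from the other cell type's unstimulated list (y axis) against the 10% bin of the unstimulated list by −log10 p (x axis, 1 the weakest), with Wilson 95% intervals over regions; blue points are members among members and regions of all 4 lists, orange points mirror regions among mirror regions and regions of all 4 lists. The blue points fall from 67.6% to 0% and the orange points from 46.8% to 0%.

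Binding at rest in Treg and not in Tconv holds for these regions only in the sense of the lists. The lowest −log10 p of the lists was 15.1 in unstimulated Treg and 13.3 in unstimulated Tconv, and the lists give no signal for a place where no peak was kept. Just inside the rule lay 3 members tied at a resting −log10 p of 15.1 (5.31-fold), among them those at ends of the genes Bzw1 and Catspere2. Just outside it lay 6 regions of all lists tied at an unstimulated Tconv −log10 p of 13.3 (5.17-fold). Among these, Arhgap5 had 6.47-fold enrichment in unstimulated Treg, Bcas1 5.64-fold and Rptor, a subunit of the mTOR complex, 6.97-fold. The members just inside and the regions just outside that are named here had resting Treg folds between 5.31 and 6.97. An unstimulated Tconv region lay within 1 kb of 3 members and within 10 kb of 36, and the median gap to the nearest one was 88.7 kb.

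After stimulation the same members covered most of the range of their lists. Folds in stimulated Treg ran from 7.31 to 96.5 with a median of 17.99 and a median percentile of 75.7. In stimulated Tconv they ran from 6.75 to 63.8 with a median of 14.2 and a median percentile of 59.1. Regions of both stimulated lists alone had median percentiles of 74.4 in stimulated Treg and 48.1 in stimulated Tconv. Those of mirror regions were 67.7 and 50.1, and those of regions of all lists 63.1 and 58.1. How strong a member was at rest said little about how strong it was after stimulation. Over the 377 members, log2 folds in unstimulated and stimulated Treg had a Pearson r of 0.021 (Spearman 0.0175), while stimulated Treg and stimulated Tconv had an r of 0.839 (Spearman 0.817). For the regions of all lists the same pairs gave 0.0374 and 0.854. The points share their libraries and local background within a list, and the resting folds of members span a narrow range, so these are descriptions over regions.

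The members lay between the promoter-proximal and the distal classes of p65 regions. Within 1 kb of an end of a protein-coding gene lay 173 members, or 45.9% (Wilson 95% interval 40.9 to 50.9%). A further 115 (30.5%) were inside a gene. Outside genes lay 72 (19.1%) within 50 kb and 17 (4.51%) farther away. Of the gene-end members on chromosomes with start sites in the promoter table, 137 of 169 (81.1%) had a transcription start within 1 kb. With every list shortened to its 2961 strongest regions the gene-end share fell in each class, to 26.8% of the 142 members left and 26.5% of mirror regions.

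The gene-end share was 20.7% (678 of 3274) in regions of both stimulated lists alone and 72.0% (1183 of 1644) in regions of all lists. It was higher in members than in the stimulated regions, with an odds ratio of 3.25 (95% interval 2.59 to 4.07, two-sided Fisher's exact test, p = 1.99e-24, adjusted over 3 tests by Benjamini-Hochberg 5.97e-24). It was lower in members than in regions of all lists, with an odds ratio of 0.331 (0.261 to 0.419, exact p = 3.45e-21, adjusted 5.18e-21). Against the mirror regions, of which 72 of 149 (48.3%, 40.4 to 56.3%) were at a gene end, the odds ratio was 0.907 with an interval of 0.609 to 1.35 (exact p = 0.629, adjusted 0.629). That interval spans both directions. Regions near 1 gene are not independent, so the p-values may be too small.

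**Figure D2:**
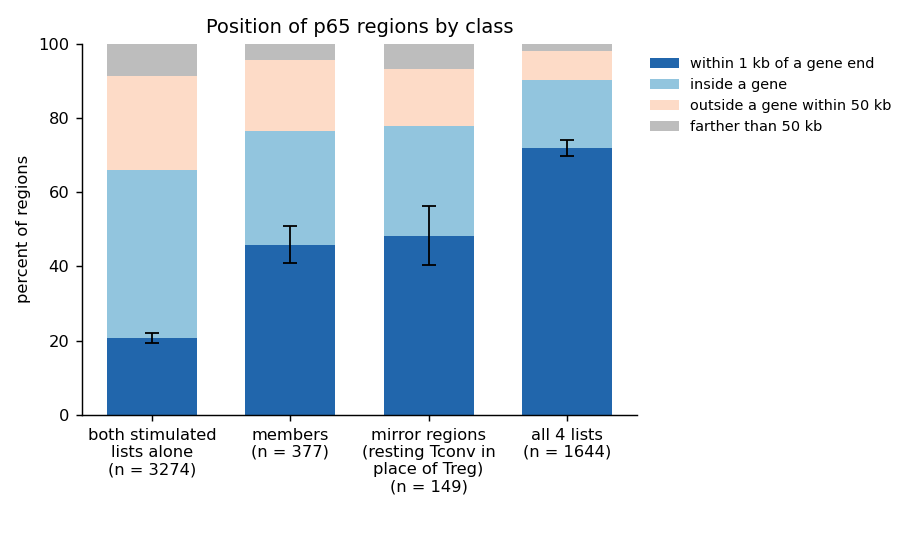
Percent of regions (y axis) at each position relative to protein-coding genes for 4 classes of union regions (x axis), with the Wilson 95% interval of the gene-end share. The members' gene-end share of 45.9% sits between the 20.7% of both stimulated lists alone and the 72.0% of all 4 lists, beside the mirror regions' 48.3%.

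Gene-end members and the others had like folds at rest and unlike folds after stimulation. In unstimulated Treg the medians were 6.08 at gene ends and 5.99 elsewhere, and the median percentile was 21.5 in both. In stimulated Treg they were 13.2 and 25.7, with median percentiles of 58.6 and 88.1. In stimulated Tconv they were 12.2 and 17.4, with percentiles of 42.5 and 73.8. Of the 204 members away from gene ends, 92 (45.1%) were in the top 10% of the stimulated Treg list, against 13 of 173 (7.51%) at gene ends. The other classes had the same order by position in stimulated Treg, with a smaller contrast. Medians at gene ends and elsewhere were 13.9 and 20.25 in mirror regions and 13.3 and 18.2 in regions of both stimulated lists alone. In regions of all lists they were 13.3 and 17.1. At rest, mirror regions were level as well, with medians of 5.54 and 5.51 in unstimulated Tconv. Regions of all lists were not, with 13.2 at gene ends and 10.1 elsewhere in unstimulated Treg. The members' resting folds span a narrow range (4.23 to 12.1), and its part in their level medians was not tested. These folds come from lists that chose the members and were not tested.

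**Figure D3:**
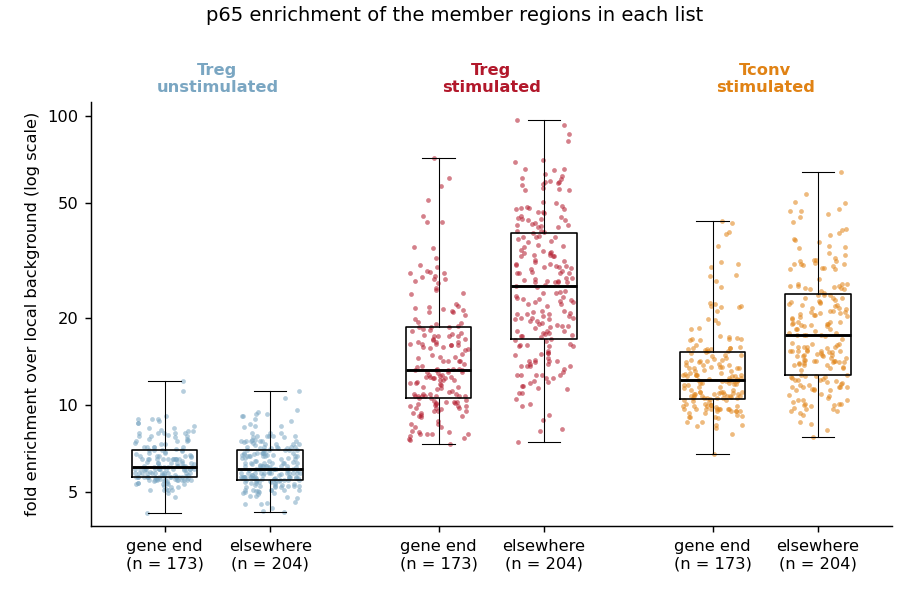
Fold enrichment of each member over its local background (y axis, log scale) in the 3 lists that hold members, split into the 173 members at a gene end and the 204 elsewhere; points are members, boxes span the quartiles with the median as a line, and whiskers reach the extremes. The boxes lie level in unstimulated Treg and apart in both stimulated lists (medians 13.2 and 25.7 in stimulated Treg).

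The members that were strongest at rest included both kinds. Sdhaf1, an assembly factor of mitochondrial complex II, had the highest resting fold at 12.1 in a gene-end region (chr7:30321562-30323856), with 20.9 in stimulated Treg and 10.4 in stimulated Tconv. An intragenic region of Fnbp1 (chr2:31059665-31063285) had 11.1, 69.0 and 40.3. A region inside Apobec3, a restriction factor against retroviruses (chr15:79894164-79896982), had 10.5, 31.2 and 23.5. These regions were picked for their resting folds, and in stimulated Treg they ranged from 20.9 to 69.0. Ahnak (9.48, 35.4 and 29.7), Rab21, a GTPase of endosomes (9.29, 12.0 and 14.2), and Ptp4a2, a phosphatase (9.29, 61.7 and 38.8), were also among the 8 highest resting folds, as were the H2-Q4 region above and the Atf3 region described with its list.

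The members that were strongest after stimulation had ordinary resting values. Cd2, an adhesion receptor of T cells, led with 96.5 in stimulated Treg and 50.5 in stimulated Tconv inside the gene (chr3:101279347-101282257), from 5.81 at rest, a resting percentile of 12.1. Cish, an inhibitor of cytokine and T cell receptor signalling, had 93.3 and 40.7 in a region 3.50 kb outside the gene (chr9:107305800-107308565), with 7.80 at rest. Cxcr5, the chemokine receptor of follicular T cells, had 86.4 and 63.8 inside the gene (chr9:44514962-44516619), with 5.40 at rest. By −log10 p, all 3 regions were above the 99th percentile of stimulated Treg and between the 5.08th and 42.0th percentile of unstimulated Treg.

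Ramp3, a partner of calcitonin-type receptors (5.81 at rest, 82.1 and 53.7), and Slc3a2, the heavy chain of an amino acid transporter (7.14, 70.6 and 47.5), showed the same order of values. Irak2, a kinase of interleukin-1 and Toll-like receptor signalling, had 5.09, 65.2 and 50.02 inside the gene. A region of chromosome 9 far from any protein-coding gene body (chr9:61667556-61670911) had 5.64, 48.9 and 47.0.

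Most members had their summits close together in the different lists. The strongest unstimulated and stimulated Treg summits were a median of 38 bp apart (quartiles 18 and 92 bp), and 290 of 377 pairs (76.9%, Wilson 95% interval 72.4 to 80.9%) were within 100 bp. With the nearest pair of summits in place of the strongest, 332 (88.1%) were within 100 bp and 9 over 500 bp. In regions of all 4 lists the shares within 100 bp were higher, at 82.7% for the strongest summits and 92.8% for the nearest pair, a difference that was not tested. Between stimulated Treg and stimulated Tconv the median was 16 bp and 356 pairs (94.4%) were within 100 bp. The 42 members whose strongest summits lay over 500 bp apart include wide regions of activation genes. Nr4a1 had strongest summits 4480 bp apart in a region of 6803 bp, Il2ra 1827 bp apart in 3235 bp and Pim1 1105 bp apart in 9525 bp. The nearest pairs of a resting and a stimulated summit in these regions were 91, 67 and 13 bp apart.

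**Figure D4:**
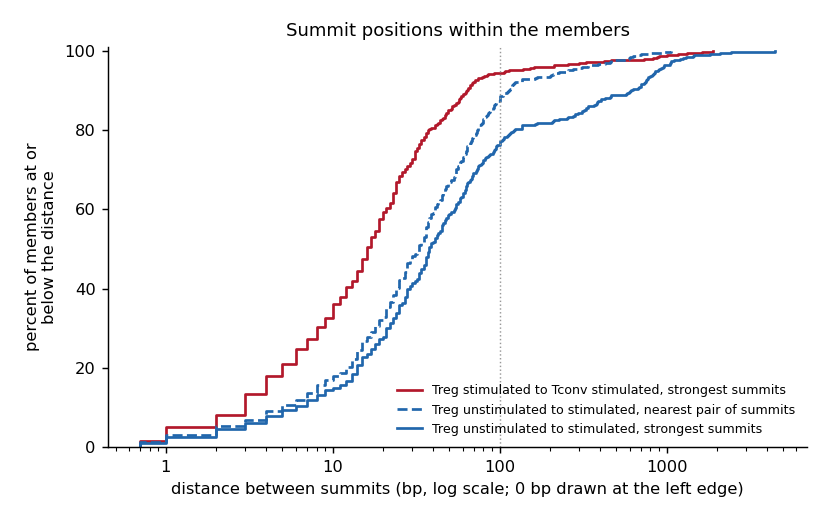
Percent of the 377 members (y axis) whose summits lie at or below a distance (x axis, bp, log scale), for the strongest summits of stimulated Treg and stimulated Tconv (red), the strongest summits of unstimulated and stimulated Treg (blue, solid) and their nearest pair (blue, dashed); the dotted line marks 100 bp. The curves cross 100 bp at 94.4%, 76.9% and 88.1%.

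The members were wide regions, often with several summits. Their median width was 1769 bp, against 1571 bp for mirror regions, 1576 bp for regions of all lists and 1293 bp for regions of both stimulated lists alone. Several stimulated Treg summits were found in 126 members (33.4%), against 28.9%, 26.8% and 23% in those classes. Several stimulated Tconv summits were found in 18.6% of members and 18.1% of mirror regions. These differences were not tested. Members and mirror regions join entries of 3 lists, and the other classes those of 4 and 2 lists. The part of that number in the widths was not tested.

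A protein-coding gene lay within 50 kb of 360 members, which named 344 genes (1.57% of 21883), 16 of them with several members. As a further yardstick, 2934 genes had any unstimulated Treg region, and 11.7% of those had a member. Genes of 14 lists of T cell and NF-kB biology were then read against these shares. A member lay at 43 of the 377 listed genes in the table (11.4%, against 1.57% of all genes), through 51 regions. Of the 130 listed genes with any unstimulated Treg region, that was 33.1%, against 11.7% of all such genes. The part played by the number of p65 regions at a gene was not tested, and the counts are given as a description.

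Among the co-stimulatory and adhesion receptors, 5 of 26 genes had a member, and these were 5 of the 8 with any unstimulated Treg region. A stimulated Treg region lay at 25 of the 26. Mirror regions lay at none of the 26, and at only 0.631% of all protein-coding genes. Cd28, the receptor engaged by the stimulation itself, had a region 3.79 kb outside the gene (chr1:60776434-60777819) with 8.0 at rest, 42.5 in stimulated Treg and 24 in stimulated Tconv. Tnfrsf18, which encodes the Treg surface receptor GITR, had 6.14, 56.1 and 22.1 at 1.95 kb from the gene and 4.58, 19.0 and 7.73 at 4.11 kb. Cd5, an inhibitory co-receptor, had 5.24, 60.6 and 25.4 at 25.1 kb from the gene, and its neighbour Cd6 had 6.14, 33.1 and 23.4. All of these regions, with that of Cd2 above, lay more than 1 kb from a gene end, though a start of the promoter table lay 0.817 kb from the first Tnfrsf18 region.

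T cell receptor signalling contributed 5 of 28 genes (5 of the 10 with an unstimulated Treg region), again all away from gene ends, and 3 of the 28 had a mirror region. Prkcq, the kinase that links the receptor to NF-kB, had 7.12 at rest, 48.5 in stimulated Treg and 35.1 in stimulated Tconv at 12.0 kb from the gene. Ptpn22, a phosphatase that restrains receptor signalling, had 7.51, 43.5 and 26.2 inside the gene. Cd247, the zeta chain of the receptor complex, had 7.80, 22.4 and 15.9. Dgkz, a lipid kinase that limits diacylglycerol signals (6.80, 17.9 and 16.9), and Nfatc2, a transcription factor of calcium signalling (7.47, 11.03 and 14.9), had the lowest stimulated Treg folds of the group. The promoter table put a start 0.151 kb from the Ptpn22 region and 0.995 kb from the Dgkz region. Both activating and restraining members of the pathway were thus represented.

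Within the NF-kB family and its feedback genes, 6 of 32 had a member (6 of the 24 with an unstimulated Treg region). None had a mirror region, which only 0.631% of all protein-coding genes had. Most NF-kB genes were bound in every list, since 22 of the 32 had a region of all 4 lists. Nfkbia, the gene of the inhibitor IkB-alpha, had its member 24.4 kb outside the gene, with 6.80, 47.6 and 32.1. Map3k8, a kinase of the NF-kB and MAP kinase pathways, had 5.97, 60.7 and 39.2 at a gene end. Bcl3, an atypical IkB protein that acts in the nucleus, had 7.30, 19.8 and 15.4 at 1.55 kb and 5.64, 18.6 and 12.7 at a gene end. The rest were feedback inhibitors or adaptors with lower folds in stimulated Treg: Tnip1 (6.29, 12.6 and 8.74), Nfkbie (5.48, 13.8 and 15.4) and Traf3 (5.52, 13.6 and 13.8).

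Cytokine receptors and their JAK, STAT and SOCS partners contributed 7 of 38 genes (7 of the 19 with an unstimulated Treg region). Il2ra, the high-affinity IL-2 receptor chain and a defining surface protein of Treg, had a member inside the gene (chr2:11650884-11654118) with 6.72 at rest, 62.9 in stimulated Treg and 34.8 in stimulated Tconv. The second Cish region, 10.2 kb from the gene, had 5.77, 55.3 and 24.4. Pim1, a kinase induced by cytokines, had 6.31, 60.9 and 35.3. Il10ra (5.64, 47.6 and 26.3), Il6ra (6.18, 42.0 and 18.7) and Il7r (5.97, 26.8 and 19.0) are receptors for cytokines that act on T cells. Jak1, the kinase these receptors share, had a gene-end region (5.64, 7.90 and 11.04) and one inside the gene (5.0, 23 and 14.3). The Jak1 regions repeat within 1 gene the order seen by position, with the higher stimulated Treg fold away from the gene end.

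Early activation genes with a member numbered 8 of 30 (26.7%), the largest share of the 14 lists when all listed genes are counted. They were 8 of the 16 with an unstimulated Treg region (50%, against 62.5% for the co-stimulators), and 3 of the 30 had a mirror region. Nr4a1, an orphan nuclear receptor induced by receptor signals, had 6.80, 71.6 and 28.2, with its strongest stimulated Treg summit at a gene end. The resting fold of 6.80 belongs to a summit 4480 bp from that one. Egr1 (6.36, 58.7 and 43.1, at 4.85 kb) and Atf3 (9.59, 50.2 and 31.8, at 10.6 kb), both transcription factors of the immediate response, had members outside the gene. Atf3 was the strongest listed early gene at rest, at the 59.6th percentile of the list. Bhlhe40 (7.30, 29.0 and 13.7) and Gadd45b (7.30, 26.8 and 39.5) had gene-end regions. Dusp1, a phosphatase of MAP kinases (5.64, 23.2 and 18.2), Ier5 (5.97, 19.9 and 16.2) and Ier2 (5.09, 19.9 and 18.9) completed the group.

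Of the 39 Treg identity genes in the table, 3 had a member: Il2ra and Tnfrsf18, given above, and Runx1, a partner of Foxp3, with 5.26, 16.7 and 11.8 inside the gene. Any unstimulated Treg region was found at 14 of the 39 and a mirror region at 2. The Treg identity share of 7.69% was lower than that of the early activation list (26.7%) and above the 1.57% of all protein-coding genes. Of the identity genes with an unstimulated Treg region, 21.4% had a member, against 11.7% of all such genes. These differences were not tested.

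In the list of naive and lineage T cell genes the mirror rule found more genes, with 4 of 26 holding a member and 8 of 26 a mirror region. The members were at Ccr7, the receptor that guides T cells to lymph nodes (7.56, 9.17 and 12.1 at a gene end, and 5.81, 41.2 and 25.4 at 15.9 kb), Tcf7, a transcription factor of naive T cells (6.80, 15.3 and 15.4, and 6.64, 14.3 and 15.2), Ets2 (7.47, 20.2 and 12.7) and Runx1. Mirror regions lay at Ikzf1, Ccr7, Zeb1, S1pr1, Lef1, Bach2, Foxp1 and Ets1. Ccr7 therefore had p65 regions of both rules. Against the 344 genes with a member, 138 genes (0.631%) had a mirror region within 50 kb. The strongest mirror regions in unstimulated Tconv lay 59.1 kb from Lipg (8.49-fold), 73.2 kb from Klf13 (8.31-fold) and at an end of Fbxw11 (7.75-fold).

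In the chemokine and trafficking list 2 of 30 genes had a member, Ccr7 and Cxcr5, and 3 had a mirror region. Besides its intragenic region, Cxcr5 had a gene-end region with 6.47, 44.9 and 30.0. Antigen processing gave 3 of 22, with H2-Q4 and H2-Q7 above and Tapbp, which loads peptides onto MHC molecules (8.14, 17.3 and 13.8 at a gene end). All 3 MHC members were at gene ends. Single genes came from the cytokine list (Tgfb1, 1 of 24), the survival list (Bbc3, which encodes the cell death protein PUMA, with 9.13, 11.03 and 13.2) and the interferon list (Apobec3, 1 of 27). The control list of ribosomal protein genes gave 1 of 30 (Rpl11, 28.5 kb away), and the B cell, myeloid and NK cell markers gave 0 of 24. An unstimulated Treg region lay at 9 of the ribosomal genes, of which 11.1% had a member, against 11.7% of all such genes. Only 1 of the 24 markers had an unstimulated Treg region, so that list could hardly give a member.

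**Figure D5:**
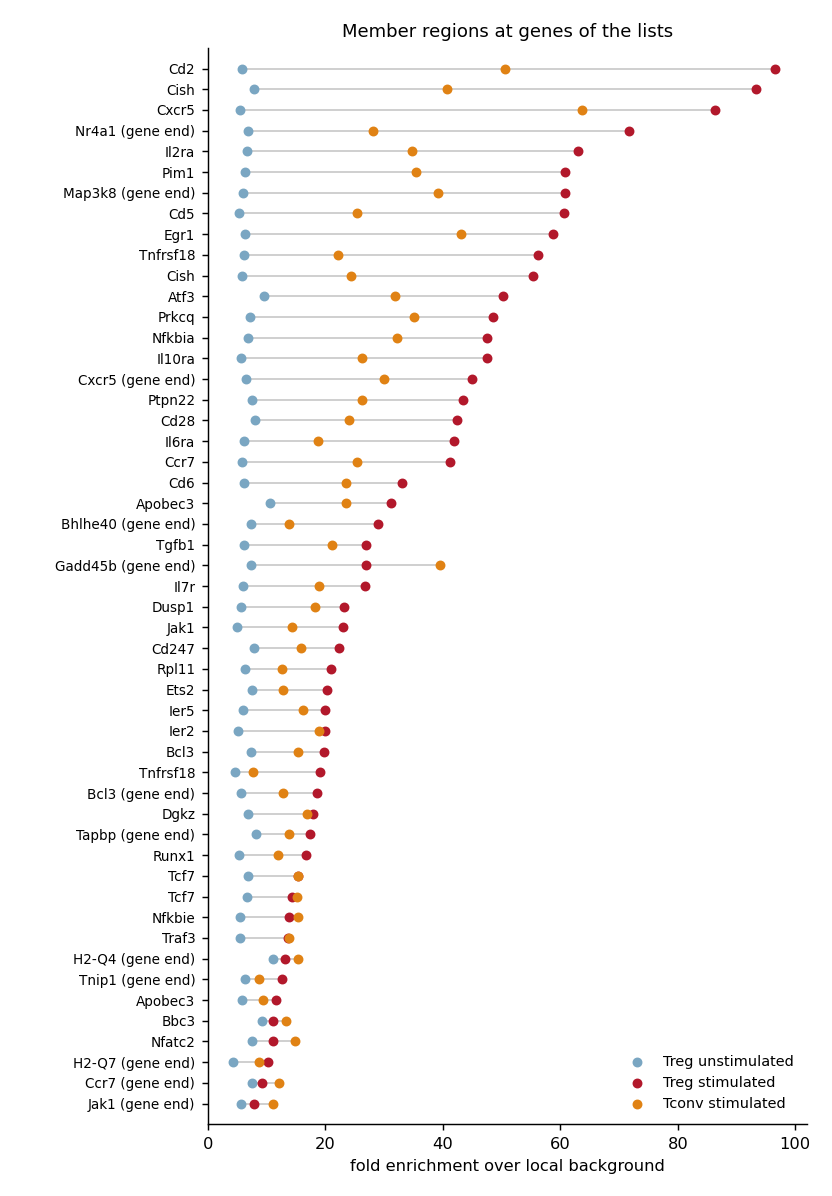
Fold enrichment over local background (x axis) of each of the 51 members at a listed gene (y axis, ordered by stimulated Treg fold), in unstimulated Treg (light blue), stimulated Treg (red) and stimulated Tconv (orange). The light blue points lie between 4.23 and 11.1, and the highest red point is 96.5 at Cd2. Folds of different lists are set side by side without being compared.

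Most genes with a member held further p65 regions, seldom ones of all lists. Of the 344 genes with a member, 41 (11.9%) also had a region of all 4 lists, against 7.12% of all protein-coding genes. A region of both stimulated lists alone lay at 122 (35.5%, against 8.63%) and one of stimulated Treg alone at 139 (40.4%, against 12.3%). Any other p65 region lay at 195 of the genes (56.7%, against 27.7%). Each of these shares was above that of all genes, which was not tested.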

How the data were processed

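p65 ChIP-seq was analysed from 4 peak lists, 1 for each group of 2 libraries; 2 input libraries had no list of their own. Per the submitters' processing notes, the tools were MACS2 2.1.1.20160309, Trim Galore 0.4.1 and BWA 0.7.15-r1140, and the genome build was mm10. The list names describe pooled replicates, removal of blacklisted regions and a conservative filter on reproducibility between replicates (IDR). Parameters and the use of the input are not given in the sources used here. Summit folds are the authors' ratio over local background, and −log10 p is the authors' deposited value. The deposited score was used only to check the columns. No read numbers were given, so depth and its precision are unknown, and a deeper or cleaner library could give a longer list.

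Entries were merged over all lists at an overlap of 1 bp. Position was taken from the strongest stimulated Treg summit, since every class compared has an entry in that list. The gene table holds neither strand nor exons, and exons and introns were not analysed here. The strongest summit by −log10 p stood for a region in each list. With no genome sequence, motifs were counted in RefSeq's promoter windows of 300 bases, which cover 79.9% of protein-coding genes. Position was compared by 3 two-sided Fisher's exact tests with Benjamini-Hochberg adjustment at 0.05, and shares have Wilson 95% intervals. The steps were tested on simulated lists with known overlaps. Python 3.11.15, pandas 2.3.3, NumPy 2.4.6, SciPy 1.17.1 and matplotlib 3.10.9 were used.

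The members, gene lists and tests were chosen with earlier results of these data known. Named were the members with the 8 highest folds in unstimulated Treg and the 6 highest in each stimulated list, the 3 weakest by resting −log10 p, up to 5 members per gene list by resting fold, and the 3 regions that bound the rule on each other side. The remaining members of the listed genes, the genes of printed sequences, those of mirror regions in the naive list, and those of the closing section were chosen after their values were seen. A gene that the rule names is not reported here. Alternatives changed the peak threshold, the overlap, the gene-end window, the class compared, the gene assignment and the summit used.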

Additional observations from a re-analysis of the deposited data

How the results depend on the processing

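The number of members depended most on the peak threshold. It was 114 with the upper 50% of each list, 161 with a common −log10 p minimum of 38.1 and 142 with each list shortened to its 2961 strongest regions, against 377. It stayed between 370 and 403 under 3 other rules of overlap. The gene-end share stayed higher in members than in regions of both stimulated lists alone under all 10 alternatives run (odds ratio 2.69 to 3.79), and lower than in regions of all lists under all 11 (0.259 to 0.395), each past the threshold. The shares themselves moved: at equal list lengths they were 26.8% of members, 26.5% of mirror regions, 12.0% of regions of both stimulated lists alone and 58.5% of regions of all lists. With the comparison regions alone limited to the members' middle range of strength, and all 377 members kept, the odds ratios were 3.75 and 0.383. The first is against regions of both stimulated lists alone and the second against regions of all lists. Against mirror regions the odds ratio turned to 1.015 at equal list lengths (two-sided Fisher's exact test, adjusted p = 1) and to 1.02 by start sites of the promoter table (adjusted p = 0.922), and ran from 0.699 to 1.02 over 9 alternatives with none past the threshold. The start-site setting and one with the unstimulated summit were chosen after seeing the data. The nearest pair of summits put 88.1% of members within 100 bp, against 76.9%. Listed genes with a member numbered 36 within 10 kb, 44 within 200 kb and 64 with every gene in reach, against 43. No paired analysis was possible because each group has 1 pooled list, and for the same reason no library could be left out. Depth is unknown, so absence from a list is not absence of binding.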

Other observations

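Members came in close runs at 5 places where at least 3 lay with gaps of at most 100 kb. By the rule, the members themselves hold no unstimulated Tconv entry. The other union regions of these stretches held none either, so none was a region of all lists. Such regions were few in places, as on chromosome 10, where 3 of 4 union regions were members. Runs of other classes were not counted, so the absence is a description. Around Cish, 4 members lay within 61.5 kb (chr9:107279662-107341159) among 7 union regions: one inside Mapkapk3, a kinase downstream of p38 (5.64 at rest, 23.4 in stimulated Treg and 37.1 in stimulated Tconv), both Cish regions, and one at an end of 6430571L13Rik (5.48, 10.7 and 11.2). Their resting folds ran from 5.48 to 7.80 and their stimulated Treg folds from 10.7 to 93.3. On chromosome 8, 3 members lay within 36.7 kb (chr8:126831816-126868532), each over 50 kb from the nearest protein-coding gene body, that of Tomm20, and 2.79 to 14.7 kb from a start of the promoter table. Their folds were 5.09 to 7.07 at rest, 28.8 to 44.0 in stimulated Treg and 14.7 to 31.4 in stimulated Tconv.

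Further runs included one of Pwp1, Prdm4 and Ascl4 (stimulated Treg folds 7.64 to 16.8) and one of Tapbp with a pair of Vps52 regions (10.5 to 17.3). Among the 17 members over 50 kb from any protein-coding gene body, the highest stimulated Treg folds were 59.5 at 74.0 kb from Bach2, a repressor of effector programmes in T cells, and 58.3 at 81.1 kb from Rnf19a. Starts of the promoter table lay nearer, at 3.47 and 10.1 kb. Their resting folds were 5.87 and 5.31. Bach2 also held mirror regions, inside the gene.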
